A study of Caenorhabditis elegans with 6 samples.

Results

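The hedgehog-related and patched-related genes of Caenorhabditis elegans were described in embryos that lack the microRNAs mir-35 to mir-41 and in wild type embryos. They were taken as every gene that the array annotation names by a single symbol of the warthog (wrt), groundhog (grd), ground-like (grl), patched (ptc) or patched-related (ptr) series, together with qua-1, hog-1, che-14 and daf-6. This gave 82 genes out of 17144 named on the arrays, read from 98 of 22548 features, and a gene with several features was represented by the brightest. They comprise 10 warthog, 14 groundhog and 29 ground-like genes, qua-1 and hog-1, the 2 patched genes ptc-1 and ptc-3, 24 patched-related genes with daf-6 counted among them, and the dispatched-like gene che-14. Total RNA of whole embryos was measured on 3 Affymetrix arrays of the mutant mir-35-41(nDf50), strain VT2935 lacking nEx1187, whose name marks it as an extrachromosomal array, and on 3 of the wild type N2. Worms of both strains grew at 20 °C on NGM agar enriched with chicken egg yolk, and embryos of mixed stages were released with hypochlorite. A free-text line of the labels gives narrower stages in terms of insect development, which differ between mutant replicates 1 and 2 and the other arrays, and was not used. Each mutant and each wild type sample is a bulk of many embryos, so fewer cells of a type and less RNA per cell cannot be told apart.

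In most animals a hedgehog ligand cleaves and lipid-modifies itself through its carboxy-terminal Hog domain, is released by Dispatched, and relieves the inhibition that its receptor Patched exerts on Smoothened. The nematode lacks a clear hedgehog and Smoothened but has a large set of secreted proteins with other amino-terminal domains, some of them joined to a Hog domain, and many membrane proteins with the sterol-sensing domain of Patched. These genes are known mainly from epidermal and glial cells, where they act in moulting, cuticle formation and the trafficking of secreted material at apical surfaces. In the deposited annotation, 36 of the 82 genes (43.9%) carry the process term for the moulting cycle of the cuticle, against 1.63% of all named genes. That term is attached to 17 of the 24 patched-related genes, 9 of the 14 groundhog genes, 6 of the 10 warthog genes and 0 of the 29 ground-like genes.

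The arrays compare how these genes stand when mir-35 to mir-41 are missing. None of the 82 passed the threshold of an adjusted p of 0.05 (limma, Benjamini-Hochberg adjustment over all 22548 features), with 0 higher and 0 lower in a test of all 82, where 0.124% of all features were called higher and 0.00443% lower. At an unadjusted limma p under 0.05, 4 genes were higher in the mutant (4.88%, against 6.23% of all features) and 7 were lower (8.54%, against 3.97%). The 4 are grl-21, grl-4, ptr-8 and ptr-1, and the 7 are wrt-5, wrt-1, grd-5, grl-10, ptr-16, ptr-20 and ptr-21. All 3 mutant arrays lay above all 3 wild type arrays for 5 genes (6.1%, against 6.16% of all features) and below them for 10 (12.2%, against 9.37%). These shares are close to those of all features, except that the share lower at an unadjusted p was larger. That count was 3 without mutant replicate 3 (1.27% of all features in the same fit), 4 without mutant replicate 1 (4%), 4 without wild type replicate 1 (1.96%) and 16 without wild type replicate 2 (11.4%). With arrays weighted gene by gene, a setting chosen after seeing the data, 7 of the genes were called higher and 8 lower. That fit called 3608 of all 22548 features, 2016 of them higher. Its weights were 4.587 and 4.882 for mutant replicates 2 and 3, which correlated at 0.998 over the 82 genes. The weights of the other arrays were 0.143 to 1.767. A difference of at least 2-fold was found for 4 genes higher (3.06% of all features) and 0 lower (0.231%). The median log2 difference of the 82 genes was -0.11, beside -0.096 for all features, and 49 of the 82 differences were negative (59.8%, against 62.2%). In simulated data 200 features were given a known change, with independent arrays and the same spread of a feature in both genotypes. There 0 were called at 2-fold and 161 at 4-fold, so that a missing call does not show an unaffected gene. In the real arrays the spread differed between the genotypes, so these rates need not hold for them.

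**Figure D1:**
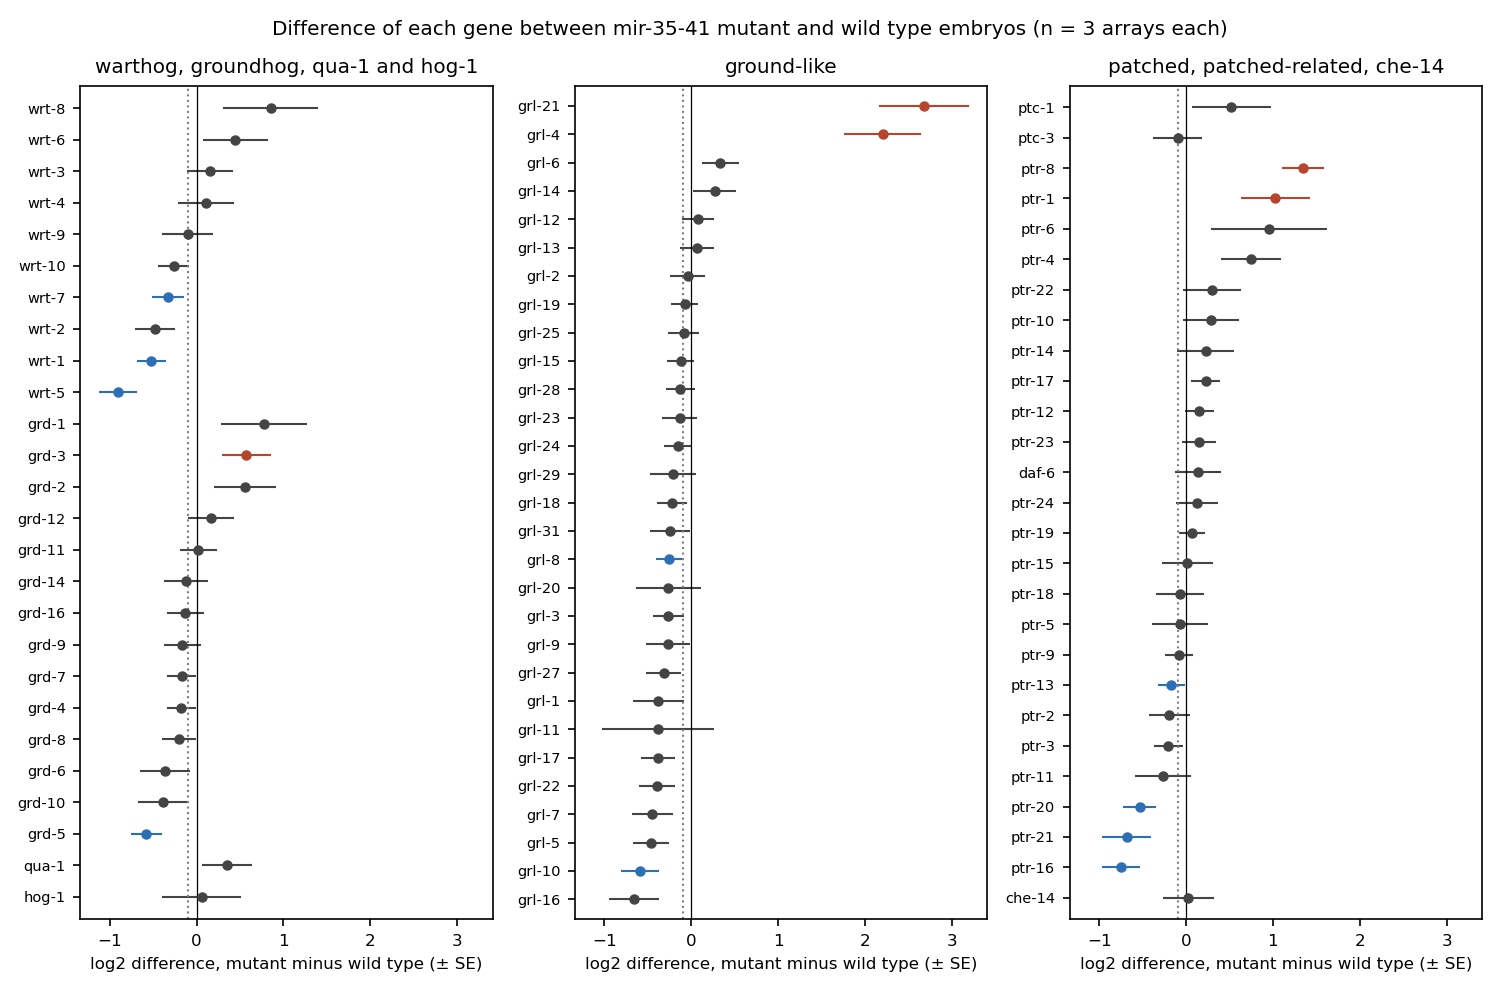
Difference of each of the 82 genes between the 3 mutant and the 3 wild type arrays (x axis, log2 mutant minus wild type, points with standard error), by family and in order of size. Red and blue points mark genes whose mutant arrays all lie above or all below the wild type arrays, the dotted line marks the median of all features at -0.096, and grl-21 at 2.68 and grl-4 at 2.20 stand farthest to the right.

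The arrays themselves differed within each genotype. Over the 82 genes the correlation of wild type replicate 3 was 0.891 to 0.917 with mutant arrays and 0.949 and 0.919 with its own group, while mutant replicates 2 and 3 reached 0.998 with each other, and mutant replicate 1 reached 0.979 and 0.980 with these (Pearson's r across genes, a description). Wild type replicate 2 was at 0.950 to 0.964 with mutant arrays over the 82 genes, and at 0.969 and 0.919 with its own group. Over all features it was closer to each mutant array (0.984 to 0.987) than to either other wild type array (0.976 and 0.9495). The standard deviation was larger among the wild type than among the mutant arrays for 66 of the 82 genes (80.5%, against 77.9% of all features). Whether the replicates are independent cultures is not stated, and a p-value here measures only how far these samples spread, technical spread included. As a check of the labelled material, the mean was below the median feature mean of 6.49 for 2 of 14 maternal genes, 2 of 9 body wall muscle markers and 3 of 28 epidermis and cuticle markers, and for all 7 adult markers such as vitellogenin genes. Of the 82 genes 32 were below it, and 26 were read by features that the array maker marks as able to match more than one transcript.

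Among the ligand-type genes the ground-like family held the largest differences of the whole set. Levels are log2 normalized intensities and follow the order of replicates 1, 2 and 3. grl-21, which encodes a secreted ground-like protein, stood at 10.57, 10.63 and 10.48 in the mutant against 8.96, 8.07 and 6.62 in wild type. Its mutant arrays lay within 0.15 log2 units of each other, its wild type arrays were spread widely, and the groups were 1.52 apart at their nearest points. The log2 difference was 2.68 ± 0.52 (SE, n = 3 arrays each; 95% interval 1.47 to 3.88), or 6.39-fold, with a limma adjusted p of 0.145. A second ground-like gene, grl-4, was at 10.85, 11.21 and 11.09 in the mutant and at 9.996, 8.28 and 8.27 in wild type. Here wild type replicate 1 was the wild type array nearest to the mutant, and the groups were again apart. The difference was 2.20 ± 0.45 (4.60-fold, 95% interval 1.16 to 3.24) with a limma adjusted p of 0.173. Without wild type replicate 1 the difference of grl-4 was 2.78 with a limma adjusted p of 0.0131. That is past the threshold, in a fit that called 47 of all 22548 features. The grl-4 feature is of the type that the array maker marks as able to match more than one transcript, so that signal from a related gene cannot be told apart, while the grl-21 feature carries no such mark.

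Most other ground-like genes had small negative differences. In this family 23 of 29 differences were negative (79.3%, against 62.2% of all features), with a median of -0.22, beside -0.096 for all features. The median was -0.13 without wild type replicate 3 (all features -0.039) and -0.0084 without wild type replicates 1 and 3 (all features -0.0082). The gene grl-10 was at 9.91, 9.89 and 9.72 in the mutant and at 10.64, 10.67 and 9.998 in wild type, apart by 0.086 at the nearest points (difference -0.59 ± 0.22, limma adjusted p = 0.451). For grl-16 (-0.66 ± 0.29) and grl-5 (-0.46 ± 0.21) wild type replicate 2 lay among the mutant arrays (limma adjusted p = 0.497 and 0.506). At the other end grl-6 had a difference of 0.34 ± 0.21 with overlapping groups (limma adjusted p = 0.583). The gene grl-2, whose promoter is widely used to mark the excretory duct and pore cells, was at 7.28, 7.38 and 7.27 in the mutant and at 7.66, 7.39 and 6.997 in wild type, with the mutant arrays inside the wild type range. Wild type spread was widest of the 82 for grl-11, at 7.70, 8.27 and 5.54, where wild type replicates 1 and 2 stood above and replicate 3 below mutant levels of 6.28, 7.04 and 7.05. Among the ground-like genes 27 of 29 had a larger standard deviation in wild type than in the mutant (93.1%, against 77.9% of all features). For 14 of them the mean was below the median feature mean, and such dim features leave little room for a lower level to be seen. One of them, grl-8, was at 4.54, 4.59 and 4.53 in the mutant and at 4.92, 4.67 and 4.85 in wild type, without overlap, and in the ground-like genes not named here the genotypes overlapped. Another, grl-18, was listed at 4.05 on all 3 mutant arrays.

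**Figure D2:**
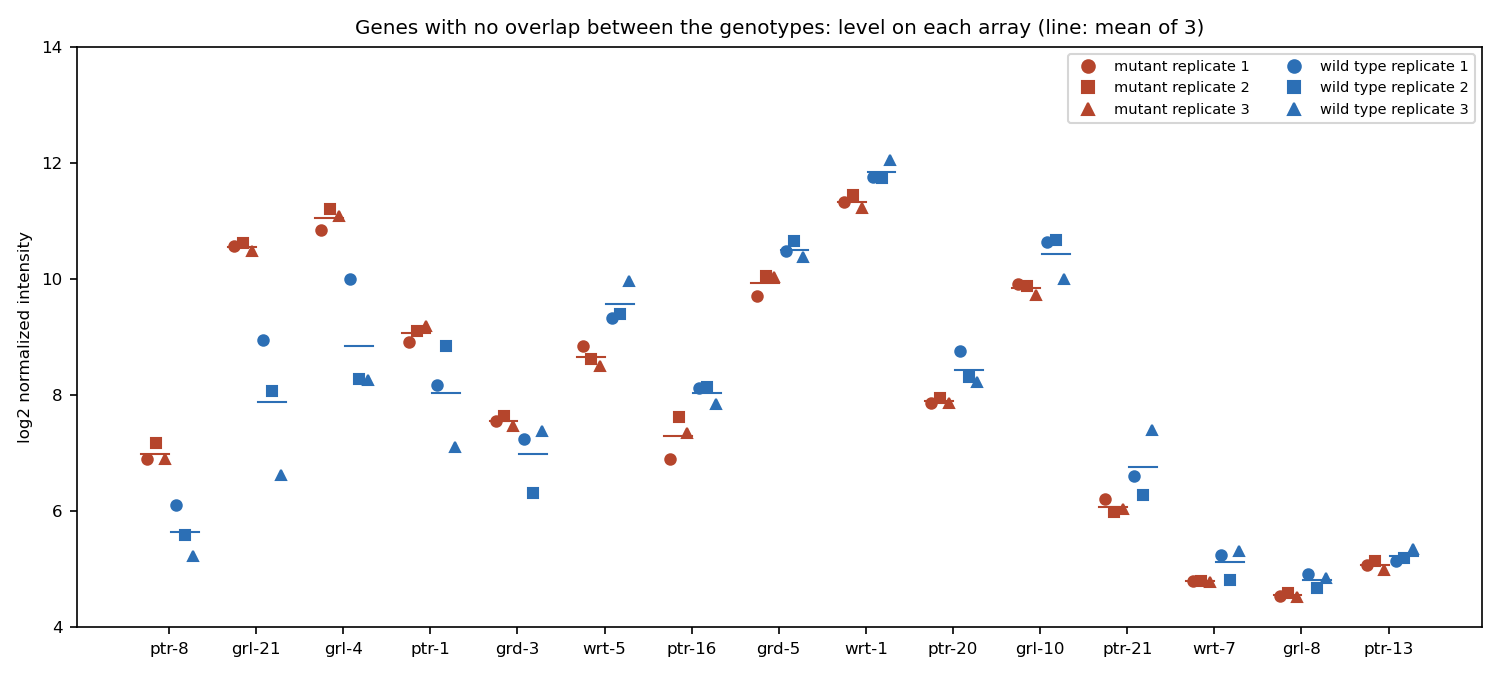
Level on each array (y axis, log2 normalized intensity) of the 15 genes whose mutant and wild type arrays do not overlap, 5 higher and 10 lower in the mutant, each in order of p, with a line at the mean of 3 arrays. The gap between the groups is widest for grl-21 at 1.52 and narrowest for ptr-13 at 0.0082 log2 units.

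The warthog genes encode secreted proteins in which a Wart domain is, in several members, followed by a Hog domain. Their leading member by p was wrt-5, at 8.85, 8.62 and 8.51 in the mutant and at 9.33, 9.40 and 9.96 in wild type. Wild type replicate 3 was highest and the groups were 0.49 apart. This difference of -0.91 ± 0.22 (mutant 1.87-fold lower, 95% interval -1.41 to -0.40) had a limma adjusted p of 0.258, and it was between -1.02 and -0.71 with each array left out in turn. wrt-1 was at 11.34, 11.44 and 11.22 in the mutant and at 11.76, 11.74 and 12.05 in wild type, and its arrays were closely grouped within each genotype. The difference of -0.52 ± 0.17 had a limma adjusted p of 0.42. Its direct neighbour on chromosome II, wrt-10, was at 11.49, 11.19 and 11.22 in the mutant and at 11.47, 11.43 and 11.79 in wild type, with overlapping genotypes. The bright gene wrt-2 differed by -0.48 ± 0.23 (limma adjusted p = 0.516), with mutant replicate 2 at 11.81 above wild type replicate 2 at 11.73. In contrast, wrt-8 had a positive difference of 0.85 ± 0.55, from 7.78, 8.88 and 8.58 in the mutant and 6.78, 8.86 and 7.04 in wild type (limma adjusted p = 0.587). Wild type replicate 2 lay among the mutant arrays there and the other wild type arrays lay below all of them, and without wild type replicates 1 and 3 the difference was -0.45. For wrt-6 (0.44 ± 0.37) and the dim wrt-3 (0.16 ± 0.26) the groups overlapped (limma adjusted p = 0.628 and 0.781). wrt-4 was at 8.59, 9.60 and 9.27 in the mutant and at 9.57, 8.77 and 8.80 in wild type, and wrt-9 was at 7.19, 7.96 and 7.81 in the mutant and at 8.24, 7.71 and 7.33 in wild type, both with mutant replicate 1 lowest. wrt-7 was dim, at 4.79 to 4.80 in the mutant and 4.82 to 5.32 in wild type. Over the 10 warthog genes the median difference was -0.18, with 6 negative.

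Groundhog genes, the third secreted series, had 9 of 14 differences negative and a median of -0.15, beside -0.096 for all features. The median was 0.019 with dim features removed (all features -0.0094) and 0.049 without wild type replicates 1 and 3 (all features -0.0082). The lowest p belonged to grd-5, at 9.70, 10.05 and 10.04 in the mutant and at 10.49, 10.66 and 10.37 in wild type. All wild type arrays were above all mutant arrays, 0.33 apart. Its difference was -0.58 ± 0.18 (1.49-fold, limma adjusted p = 0.382). By contrast grd-3 was at 7.56, 7.64 and 7.47 in the mutant and at 7.25, 6.31 and 7.38 in wild type, a difference of 0.57 ± 0.29 with no overlap and with wild type replicate 2 standing lowest (limma adjusted p = 0.524). It was 0.24 without that array. Its direct neighbour on chromosome IV is grd-10, at 7.02, 6.74 and 6.74 in the mutant and at 7.64, 6.54 and 7.47 in wild type, where the same wild type array was lowest and the difference was -0.38 ± 0.30 (limma adjusted p = 0.614). The adjacent genes thus had differences of opposite sign, and that of grd-10 was 0.30 without wild type replicates 1 and 3. For grd-1 the mutant arrays themselves split, with replicate 1 at 5.71 and replicates 2 and 3 at 7.31 and 7.28, beside 5.70, 6.76 and 5.51 in wild type (difference 0.77 ± 0.50, limma adjusted p = 0.585). A similar split gave grd-2 a difference of 0.56 ± 0.36 and grd-6 one of -0.36 ± 0.29 (limma adjusted p = 0.584 and 0.619). With single arrays left out these ranged from 0.51 to 1.30 for grd-1, from 0.28 to 0.89 for grd-2 and from -0.55 to -0.055 for grd-6. The second grd-1 feature gave 0.11 ± 0.28. In the remaining groundhog genes, grd-4, grd-7, grd-8, grd-9, grd-11, grd-12, grd-14 and grd-16, the genotypes overlapped, and 8 of the 14 groundhog genes were dim. The 2 genes outside these series are qua-1, which is needed for moulting and carries a Hog domain, and hog-1, named for having a Hog domain alone. qua-1 was at 6.02, 6.74 and 7.10 in the mutant and at 6.12, 6.57 and 6.12 in wild type (0.35 ± 0.29, limma adjusted p = 0.626). hog-1 was at 8.84, 9.18 and 9.13 in the mutant and at 9.36, 9.77 and 7.85 in wild type (0.058 ± 0.45, limma adjusted p = 0.954). Wild type replicate 3 was lowest for hog-1, and without it the difference was -0.51.

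Of the receptor-type genes, the patched homologues were not parted by genotype. ptc-1, which is required for cytokinesis in the germline, was at 8.32, 9.57 and 9.76 in the mutant and at 9.02, 9.14 and 7.91 in wild type. Mutant replicate 1 lay among the wild type arrays. The difference was 0.52 ± 0.46 (95% interval -0.54 to 1.59, limma adjusted p = 0.636), and the second ptc-1 feature gave 0.30 ± 0.24. The first was 0.13 without wild type replicate 3 and 0.97 without mutant replicate 1. ptc-3, an essential patched gene, was at 9.64, 10.60 and 10.34 in the mutant and at 10.65, 10.18 and 10.04 in wild type (difference -0.096 ± 0.29, 95% interval -0.76 to 0.57, limma adjusted p = 0.873). A further feature names ptc-1 and ptc-2 together and was not counted as a member.

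The patched-related genes encode membrane proteins with a sterol-sensing domain. Their median difference was 0.097 with 14 of 24 positive, beside a median of -0.096 for all features. It was -0.11 without wild type replicate 3 (all features -0.039) and -0.032 with arrays centred on their median (all features -0.22). With gene-by-gene weights it was -0.073 (all features -0.092), and without wild type replicates 1 and 3 it was -0.0048 (all features -0.0082). Centring thus lowered the family median and that of all features together. The smallest p of all 82 genes belonged to ptr-8, at 6.90, 7.18 and 6.90 in the mutant and at 6.11, 5.59 and 5.24 in wild type. The nearest arrays of the 2 genotypes were 0.79 apart. The difference was 1.35 ± 0.24 (2.55-fold, 95% interval 0.78 to 1.91) with a limma adjusted p of 0.126. Without wild type replicate 2 it was 1.32 with a limma adjusted p of 0.0469, past the threshold, in a fit that called 1289 features in all. The wild type level of ptr-8 is below the median feature mean, and its feature is marked as able to match more than one transcript.

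ptr-1 was at 8.91, 9.11 and 9.19 in the mutant and at 8.18, 8.84 and 7.10 in wild type. Its groups were only 0.070 apart, with wild type replicate 2 next to the mutant arrays (difference 1.03 ± 0.40, limma adjusted p = 0.467). It was 0.56 without wild type replicate 3. ptr-4 was at 9.89, 10.36 and 10.38 in the mutant and at 9.35, 10.21 and 8.83 in wild type, again with wild type replicate 2 among the mutant arrays, and its difference of 0.75 ± 0.35 had a limma adjusted p of 0.508. It was 0.43 without wild type replicate 3, 1.12 without wild type replicate 2 and 0.0017 without wild type replicates 1 and 3. The widest swing within wild type among these was that of ptr-6, at 6.51, 7.79 and 4.97, against mutant levels of 6.63, 7.78 and 7.72. In these 3 genes wild type replicate 3 was the lowest array.

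On the lower side, ptr-16 was at 6.90, 7.62 and 7.35 in the mutant and at 8.13, 8.14 and 7.85 in wild type, 0.22 apart. Here the wild type arrays were the tighter group. Its difference was -0.75 ± 0.22 (1.68-fold lower, limma adjusted p = 0.36). ptr-20 was at 7.87, 7.96 and 7.87 in the mutant and at 8.76, 8.31 and 8.23 in wild type (difference -0.53 ± 0.19, limma adjusted p = 0.445). Its mutant arrays were nearly equal and every wild type array was higher. For ptr-21, at 6.21, 5.99 and 6.04 in the mutant and at 6.62, 6.28 and 7.40 in wild type, wild type replicate 3 stood well above the others in a difference of -0.68 ± 0.28 (limma adjusted p = 0.486). It was -0.36 without that array. The 4 features of ptr-23 disagreed in sign, with 0.15 ± 0.20 on the brightest and differences from -0.13 to 0.25 on the others. ptr-10, a promoter of which is a common marker of glia, was at 7.58, 8.32 and 8.22 in the mutant and at 7.93, 8.21 and 7.12 in wild type, with overlapping genotypes. Among the other 14 patched-related genes the genotypes overlapped except for the dim ptr-13, at 5.08, 5.14 and 4.99 in the mutant and at 5.15, 5.20 and 5.36 in wild type.

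daf-6, a patched-related gene that shapes the lumen of the amphid glial channel, was at 8.76, 8.92 and 8.94 in the mutant and at 9.09, 8.99 and 8.13 in wild type (difference 0.14 ± 0.27, 95% interval -0.48 to 0.76, limma adjusted p = 0.808). che-14, a dispatched-like protein of apical secretion in epidermal and glial cells, was at 7.45, 7.76 and 7.58 in the mutant and at 7.52, 8.19 and 7.01 in wild type (difference 0.029 ± 0.29, 95% interval -0.65 to 0.71, limma adjusted p = 0.966). In both genes wild type replicate 3 was the lowest array, and the differences without it were -0.17 and -0.25. The second che-14 feature differed by -0.017 ± 0.37.

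The families also differed in how single arrays stood within a genotype. For each gene the deviation of an array from the gene's mean over 6 arrays was taken, and the median over a family is given. On wild type replicate 3 it was 0.29 for ground-like, 0.21 for groundhog and 0.059 for warthog genes, but -0.30 for patched-related genes, beside 0.11 for all features. That array was the highest of the 6 for 16 of 29 ground-like genes and 2 of 24 patched-related genes (41.9% of all features), and the lowest for 6 and 12 of them (24.6% of all features). The ground-like and groundhog medians on that array thus lay above that of all features, and the patched-related median lay below it. On wild type replicates 1 and 2 the patched-related median was 0.16 and 0.086, close to 0.17 and 0.069 on mutant replicates 2 and 3. The warthog median was lowest on mutant replicate 1, at -0.31, where mutant replicates 2 and 3 had 0.14 and -0.0085. That array was the lowest for 4 of the 10 warthog genes (40%, against 14.4% of all features). Mutant replicate 1 was the lowest array for 19 of the 82 genes (23.2%, against 14.4% of all features) and the highest for 2 (2.44%, against 13.4%).

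**Figure D3:**
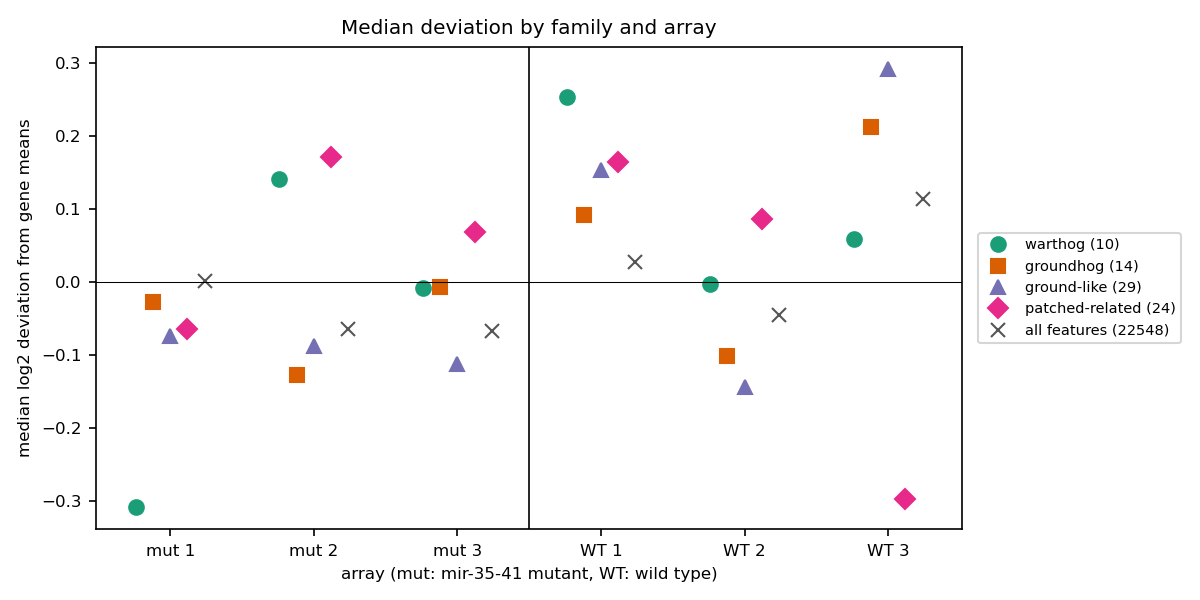
Median log2 deviation from the gene means (y axis) on each of the 6 arrays (x axis) for the 4 large families and for all features. On wild type replicate 3 the ground-like genes stand at 0.29 and the patched-related genes at -0.30.

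**Figure D4:**
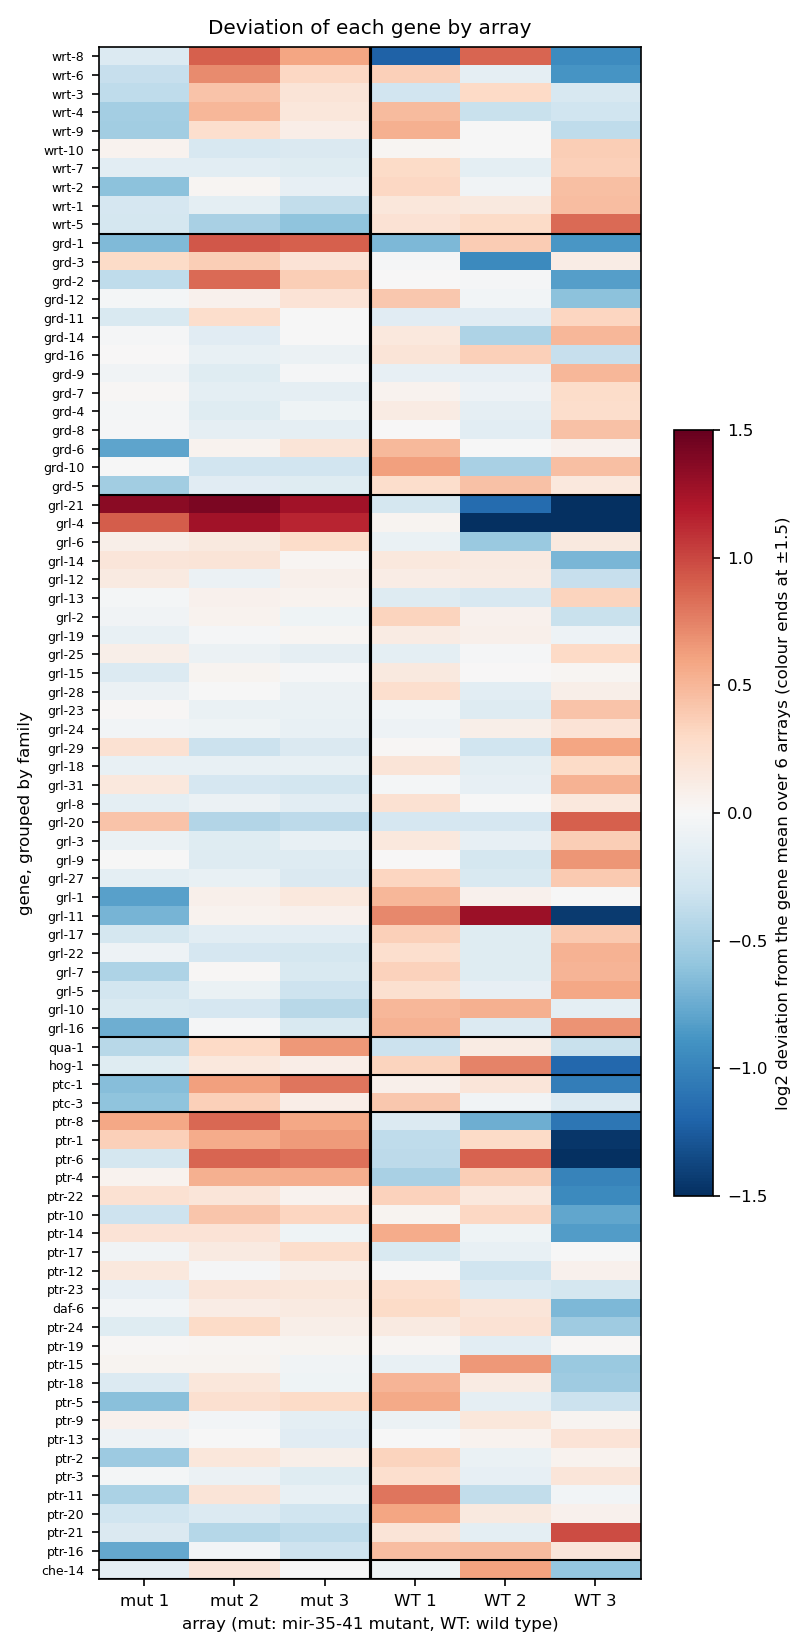
Deviation of each of the 82 genes (rows, grouped by family) on each array (columns), as log2 difference from the gene's mean over the 6 arrays, in colour that ends at ±1.5. The rows of grl-21 and grl-4 are red on all 3 mutant arrays, and wild type replicate 3 is the lowest array in 12 of 24 patched-related rows.

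Markers of tissues also deviated on single arrays, and their part in these values was not tested. The median deviation of 10 neuronal markers on wild type replicate 3 was -0.60, of 28 epidermis and cuticle markers 0.23, of 14 maternal genes 0.54 and of 10 glial markers -0.068. Body wall muscle markers, 9 in number, had -0.69 on mutant replicate 1. Summed intensity of the 28 epidermis and cuticle markers was 67121 to 68524 in the mutant and 68765, 68437 and 93561 in wild type. That of the maternal genes was 14158 to 15187 in the mutant and 20963, 15127 and 26579 in wild type. For the neuronal markers the sums ranged from 5313 to 6943 in the mutant and from 5654 to 5914 in wild type. Such sums follow the brightest genes and not the typical marker. Examples are snb-1 among neuronal and sqt-3 among epidermal markers, at log2 11.90 and 14.79 on wild type replicate 3, the highest array for both. No marker of these lists is listed at 0. In the epidermis and cuticle list 17 of 28 differences were negative and the median was -0.074. Of the 28 genes 0 passed the limma threshold. At an unadjusted limma p under 0.05, 5 were higher (17.9%, against 6.23% of all features) and 1 lower (3.57%, against 3.97%). The smallest p belonged to dpy-9, dpy-8 and sqt-2, which encode collagens of the cuticle. Their differences were 1.63 ± 0.24, 1.35 ± 0.28 and 1.33 ± 0.21 (limma adjusted p = 0.0725, 0.194 and 0.096). Those 3 were lowest on wild type replicate 2, and grl-21 and ptr-8 on wild type replicate 3. On wild type replicates 2 and 3 grl-4 was about equal, at 8.28 and 8.27. ptr-8 was at 5.59 on wild type replicate 2, below 6.11 on replicate 1. Whether the genes share a pattern was not tested. In the glial, intestinal, pharyngeal, adult and epidermal transcription factor lists 0 genes passed and 0 had an unadjusted limma p under 0.05. Among maternal genes 0 passed and 3 were lower at that p (21.4%, against 3.97% of all features). Among neuronal markers 0 passed and 1 was higher (10%, against 6.23%), and among muscle markers 0 passed and 1 was lower (11.1%, against 3.97%). Of the 11 differences of epidermal transcription factor genes 8 were negative and the median was -0.24. The median difference was -0.52 for the maternal genes, with 13 of 14 negative, and 0.55 for the neuronal markers, with 7 of 10 positive.

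Other genes tied to hedgehog-type signalling or to sterol-sensing proteins were read from a separate list, of which 16 of 17 had a feature. Of these 0 passed the threshold, and the median difference was 0.051. At an unadjusted limma p under 0.05, 2 were higher (12.5%, against 6.23% of all features) and 2 lower (12.5%, against 3.97%). hhat-2, related to the acyltransferase that lipidates hedgehog, was at 8.04, 8.01 and 7.95 in the mutant and at 8.47, 8.52 and 8.82 in wild type (-0.60 ± 0.17, limma adjusted p = 0.315). All wild type arrays were higher. The glypican gene gpn-1 differed by 0.59 ± 0.21 and the casein kinase gene kin-19 by -0.69 ± 0.25 (limma adjusted p = 0.445 and 0.446). tra-1, the homologue of the hedgehog-responsive Gli factors and the last step of sex determination in this animal, was at 8.30, 8.57 and 8.69 in the mutant and at 8.73, 8.48 and 9.22 in wild type on its brightest feature, with overlapping groups (limma adjusted p = 0.619).

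Of 87 family genes in the RefSeq table of assembly WBcel235, grd-13, grd-15, grl-26, grl-30 and ptr-25 had no feature under their symbol. They were not counted as members. Only ptr-25 had a feature under its sequence name, F43D9.1, with a difference of 0.030 ± 0.28 and overlapping groups (limma adjusted p = 0.961). By position, 31 of the 82 genes lie on chromosome V, 14 on X, 11 each on II and IV, 9 on I and 6 on III. Only 7 pairs have at most 2 protein-coding genes between them, and 13 genes take part. In 5 of these pairs both differences had the same sign, the exceptions being grd-3 with grd-10 and wrt-7 with wrt-8. grl-21 and grl-4 both lie on chromosome IV and are not such a pair.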

How the data were processed

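RNA of 6 bulk embryo samples was hybridised to 1-colour Affymetrix arrays after Trizol extraction and single-round biotin labelling, per the labels' protocols. The deposited table holds linear normalized intensity per feature, which the authors produced with Affymetrix Expression Console, per the submitters' processing notes, and its version and its background and normalization settings were not found in the labels or headers. The deposited value table holds log2 values of the same arrays, and log2 of the linear intensity differed from it by at most 5.63e-06. Any summarisation or scaling between arrays done before deposit cannot be undone and can pull small differences together.

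Control features (77 of 22625) were left out. log2 values of the other 22548 were fitted with limma 3.58.1 in R 4.3.3, all 6 arrays, 2 groups of 3, no covariate, two-sided, with adjusted p-values by Benjamini-Hochberg across the whole table and a threshold of 0.05, and no feature was dropped for low intensity. A gene with several features was read from the one with the highest mean, and the levels of different genes were not ranked against each other. The number of arrays limits the precision, and 3 against 3 arrays recovered 0 of 200 features changed by 2-fold, 161 changed by 4-fold and 192 changed by 8-fold in simulated data of 22548 features. The simulation used independent arrays and the same spread in both genotypes, which the real arrays did not have.

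Full statistics are given, per family, for up to 3 members higher and 3 lower by smallest p, for ptc-1, ptc-3, qua-1, hog-1, che-14 and daf-6, and for members whose features disagree in sign; from the other lists, up to 3 genes by smallest p, and tra-1. The members, gene lists and rules were chosen with earlier results of these data known. All 82 symbols matched the RefSeq table (WBcel235), used for chromosomes and neighbours only. Alternatives comprised each array left out, the replicate number as a block, the value table, quantile normalization, centring, dim features removed, a constant of 16 added, a trended robust prior, mutant replicates 2 and 3 as 1 sample and the mean over features. Array weights and leaving out wild type replicates 1 and 3 together were added after seeing the data.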

Additional observations from a re-analysis of the deposited data

How the results depend on the processing

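Over 17 alternatives, 22 recomputed differences turned sign among the 31 genes given with full statistics. Signs of the other members were not counted. The patched-related and groundhog medians also turned sign in the settings given with them above, where the median of all features moved as well. With each array left out in turn, members called higher ranged from 0 to 1 and members called lower from 0 to 0. The calls were grl-4 without wild type replicate 1 and ptr-8 without wild type replicate 2. Over the same fits 0 to 1289 of all 22548 features were called. Members at an unadjusted limma p under 0.05 ranged from 3 to 7 higher and from 3 to 16 lower. The share of all features at that p ranged from 3.2% to 12.8% higher and from 1.27% to 11.4% lower. Counting mutant replicates 2 and 3 as 1 sample left 3 members lower at an unadjusted p under 0.05 (1.37% of all features). Gene-by-gene array weights, added after seeing the data, gave 7 members called higher and 8 called lower. That fit called 3608 of 22548 features, 2016 of them higher, where 29 were called without weights. In it 12 members were higher (15% of all features) and 19 lower (19.7%) at an unadjusted limma p under 0.05. Leaving out wild type replicates 1 and 3 together, also added, left a lone wild type array. It gave a ground-like median of -0.0084, beside -0.0082 for all features. The cause of these shifts was not tested.

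Among the 31 genes, sign changes were found for differences near 0 that passed in no setting, and for wrt-8 and grd-10. The last 2 passed with gene-by-gene weights (1.54 and -0.69). With arrays left out singly the difference ranged from -0.30 to 0.18 for ptc-3, -0.25 to 0.34 for che-14, -0.51 to 0.45 for hog-1, -0.021 to 0.39 for wrt-3 and -0.17 to 0.32 for daf-6. Without a change of sign, it ranged from 0.11 to 0.73 for wrt-6, 0.459 to 1.503 for wrt-8, 0.11 to 0.65 for qua-1, -0.72 to -0.17 for grd-10, 0.14 to 0.49 for grl-6, -0.92 to -0.45 for grl-16, -0.64 to -0.29 for grl-5, -0.62 to -0.29 for wrt-2, -0.93 to -0.36 for ptr-21 and 0.054 to 0.31 for ptr-23. Quantile normalization gave -0.13 for che-14 and -0.063 for hog-1, centring gave -0.10 and -0.070, and averaging mutant replicates 2 and 3 gave -0.0089 for che-14. Gene-by-gene weights gave -0.095 for daf-6 and -0.20 for hog-1. Without wild type replicates 1 and 3 the values were -0.59 for che-14, -0.11 for daf-6, 0.30 for grd-10, -0.72 for hog-1, 0.010 for ptc-3, -0.22 for wrt-3 and -0.45 for wrt-8. Centring moved the median of all features from -0.096 to -0.22 and that of the members to -0.24.

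With the replicate number as a block, 0 members were called higher and 0 lower, 6 were higher (7.1% of all features) and 7 lower (2.84%) at an unadjusted p under 0.05, and 19 features were called. Deviations of same-numbered arrays correlated at -0.032, 0.072 and -0.176 for numbers 1, 2 and 3, and 0 of the 6 arrays correlated best with its own number, so the numbers were not taken to pair the samples. Limits are the 3 arrays per genotype, the wide wild type spread, features at low intensity or shared between transcripts, and a normalization that is not given in the sources used here. A further limit is embryo stage, which the labels do not settle and which may differ between the genotypes.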
